A study of Mus musculus with 6 samples.

Results

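Intermediate progenitor and cortical layer factors were 9 genes of 48526 in the count table, chosen by name: Eomes, Bcl11b, Tle4, Foxp2, Ldb2, Cux1, Cux2, Rorb and Mef2c. Each symbol matched 1 Ensembl identifier through GENCODE M21, and all 9 had enough reads to be among the 20549 genes tested. The study sequenced RNA of neural progenitors grown from mouse embryonic stem cells, with 3 libraries labelled -/- for Dmrta2 and 3 labelled flox/flox, the control, all taken on day 8 of differentiation. Both groups were cultured in N2B27 medium with LDN193189 (100 nM) and SB431542 (10 µM) until day 4, XAV939 (1 µM) until day 6 and cyclopamine (1 µM) from day 2 onward, and both were replated on day 5. These agents inhibit BMP receptors, activin and TGF-beta receptors, the Wnt pathway and the Hedgehog pathway. The labels describe 3 biological replicates of a single line per genotype, so genotype and line cannot be told apart, and p-values measure the spread between samples of a line. Libraries are named by label and by the letter of their column, from A to C.

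In the developing cortex, radial glia divide to give intermediate progenitors, which in turn divide to give glutamatergic projection neurons. Intermediate progenitors are marked by the T-box factor Eomes, also called Tbr2. The neurons settle in layers, with the deep layers formed before the upper layers, and each layer is marked by its own transcription factors. Many of these factors also act outside the cortex, for example in the striatum, thalamus, hindbrain or heart.

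In the libraries labelled -/-, Eomes, Rorb and Cux1 rose and Bcl11b and Cux2 fell, while Tle4, Foxp2, Ldb2 and Mef2c did not pass the test. The 3 rises are to be read beside 17.9% of all genes tested that rose, and the 2 falls beside 17.4% that fell (35.3% in either direction). The largest changes were a 3.40-fold fall of Bcl11b, a 2.42-fold rise of Rorb and a 2.28-fold rise of Eomes. Cux1 and Cux2, a pair of paralogs, moved in opposite directions by 1.18-fold and 1.35-fold. Of the 4 deep-layer members, Bcl11b alone passed the test, while the 3 upper-layer members all passed, with Cux1 and Rorb higher and Cux2 lower. The median log2 fold change of the 9 was 0.22, against -0.0025 over all genes tested. That median is the value of Mef2c, which did not pass, and the 9 ran from -1.77 to 1.28. Levels are given in CPM (read counts scaled to a common library size) after TMM scaling of the libraries. Tests are two-sided quasi-likelihood tests in edgeR, with p adjusted over all genes tested and a threshold of 0.05. "Rose" and "fell" are used only of genes past it, and always describe the libraries labelled -/- relative to flox/flox.

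Dmrta2, the gene named in the labels, was higher in the libraries labelled -/-. It measured 409, 414 and 439 CPM in -/- A to C and 85.2, 75.1 and 79.2 CPM in flox/flox A to C. The count covers the whole gene and no label states what the deletion takes out, so the level is no check of it, and all directions here are those of the labels. Total counts ran from 29031604 to 39646793 in the libraries labelled -/- and from 24565560 to 29820515 in flox/flox libraries. Along the leading principal component, with 81.5% of the variance, the groups lay apart. Emx1 and Emx2, homeobox genes of the dorsal telencephalon, fell to means of 0.437 and 31.3 CPM in the libraries labelled -/-, against 4.47 and 89.0 CPM in flox/flox libraries, while Pax6 rose to 162 CPM, against 108 CPM. Sox1, Sox2 and Nes, which mark neural progenitors, had means of 100, 181 and 676 CPM in the libraries labelled -/- and 71.5, 235 and 813 CPM in flox/flox libraries. The labelled cell type thus has its markers in all 6 libraries.

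The sequences just upstream of RefSeq transcription starts are shown for the members that changed most. Windows of 250 bases before RefSeq starts (build GRCm38.p6) were at hand for 7 of the 9 members, 12 windows in all. They were searched on both strands for ACATTGT, the core of the site bound by Dmrt proteins, for CAGATG and CAGCTG, E-boxes bound by proneural factors, and for TATAA, the core of the TATA box. Motif matches are in capitals in the sequences, which run 5′ to 3′ toward the RefSeq start. The Eomes, Bcl11b and Rorb windows belong to the members with the largest changes, and the Cux2 window is the only one of a member that passed the test with a CAGATG match (as its reverse complement). By GENCODE positions this Cux2 window lies within the gene, before an internal RefSeq start. The other Cux2 window (chr5:122049852-122050101), at the 5′ end of the gene and also within it, holds no match to any of these motifs. Most of the Bcl11b window lies within its gene by GENCODE positions, at the 5′ end.
Eomes, chr9:118477939-118478188, plus strand: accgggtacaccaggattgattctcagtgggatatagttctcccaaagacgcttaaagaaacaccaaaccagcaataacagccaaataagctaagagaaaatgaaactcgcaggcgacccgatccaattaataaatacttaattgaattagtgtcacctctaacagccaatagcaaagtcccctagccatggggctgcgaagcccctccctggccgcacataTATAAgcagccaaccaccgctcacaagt
Bcl11b, chr12:108003415-108003664, minus strand: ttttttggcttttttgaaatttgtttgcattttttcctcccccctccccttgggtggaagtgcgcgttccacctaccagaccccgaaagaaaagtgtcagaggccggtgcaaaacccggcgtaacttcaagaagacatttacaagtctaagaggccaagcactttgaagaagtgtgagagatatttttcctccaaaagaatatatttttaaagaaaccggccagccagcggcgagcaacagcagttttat
Rorb, chr19:19111197-19111446, minus strand: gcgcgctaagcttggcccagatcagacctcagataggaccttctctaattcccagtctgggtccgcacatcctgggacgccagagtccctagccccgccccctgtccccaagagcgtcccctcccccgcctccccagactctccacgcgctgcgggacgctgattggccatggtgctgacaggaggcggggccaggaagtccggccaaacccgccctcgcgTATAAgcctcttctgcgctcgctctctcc
Cux2, chr5:122047826-122048075, minus strand: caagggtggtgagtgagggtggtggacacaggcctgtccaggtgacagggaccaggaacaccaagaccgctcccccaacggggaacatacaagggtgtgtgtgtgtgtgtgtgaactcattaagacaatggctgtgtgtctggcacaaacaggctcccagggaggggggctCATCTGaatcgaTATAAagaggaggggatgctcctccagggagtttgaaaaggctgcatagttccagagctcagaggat
The Eomes and Rorb windows each hold TATAA, beginning 28 and 29 bases before the start. TATAA was found in 5 of the 12 windows and in 22.8% of all 32851 promoter windows of this length. ACATTGT was found in 0 of the 12, against 2.56% of all windows, CAGATG in 2 against 14.4%, and CAGCTG in 0 against 13.0%. A match is a description of the letters, and its absence says only that they are not in this window.

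Eomes (ENSMUSG00000032446, GRCm38 chromosome 9, 118478212 to 118486132, plus strand) encodes the T-box factor that marks intermediate progenitors and acts in the step from radial glia to neurons. It measured 80.1, 94.0 and 97.1 CPM in -/- A to C, against 23.3, 32.6 and 63.3 CPM in flox/flox A to C. The groups did not overlap, as held for 51.0% of all genes tested, and the flox/flox libraries spread 2.72-fold while those labelled -/- spread 1.21-fold. The log2 fold change was 1.19 ± 0.32 (SE, 95% confidence interval 0.43 to 1.95, adjusted p = 0.0255, edgeR). The call was lost without flox/flox B (log2 fold change 1.07, adjusted p = 0.0952, edgeR), without -/- B (1.17, adjusted p = 0.0710) and without -/- C (1.15, adjusted p = 0.0575), where all alternatives spanned 0.000796 to 0.0952. With the column letter as a block, the log2 fold change was 1.30 ± 0.20 (SE, adjusted p = 0.00274, edgeR). In bulk RNA, more cells that express a gene and more RNA per cell cannot be told apart. The count of Eomes could hold reads of Gm33460 on the other strand, which covers 2.84% of its exonic bases, since the strand setting of the counting is not given.

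Eomes also marks the early mesendoderm, so markers of that cell type were read beside it. Of 8 listed markers, 3 rose, 1 fell and 1 was not tested. Their summed level was 39.6 to 67.9 CPM in the libraries labelled -/- and 46.0 to 65.6 CPM in flox/flox libraries. T, the T-box gene of mesoderm, fell to a mean of 25.4 ± 6.17 CPM in the libraries labelled -/-, against 41.9 ± 6.22 CPM in flox/flox libraries (SD, n = 3 each), and Sox17, Gata6 and Foxa2 rose. Mixl1 and Gsc had means of 1.67 and 0.379 CPM in the libraries labelled -/- and 2.11 and 0.502 CPM in flox/flox libraries. Cajal-Retzius cells, early cortical neurons some of which express Eomes, are marked by 7 listed genes, of which 5 rose and 2 (Trp73 and Reln) fell. Their summed level was 489 to 791 CPM in the libraries labelled -/- and 239 to 363 CPM in flox/flox libraries. Reln and Trp73 went the other way, with means of 50.6 and 4.78 CPM in the libraries labelled -/- and 84.8 and 24.7 CPM in flox/flox libraries. The part of either cell type in the change of Eomes was not tested.

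Bcl11b (ENSMUSG00000048251, chromosome 12, 107910403 to 108003602, minus strand) encodes a zinc finger factor, also called Ctip2, of layer V neurons that project below the cortex and of striatal neurons. It measured 8.11, 6.35 and 9.04 CPM in -/- A to C, against 22.0, 21.3 and 36.7 CPM in flox/flox A to C. Every library labelled -/- was below every flox/flox library. The log2 fold change was -1.77 ± 0.24 (SE, 95% confidence interval -2.32 to -1.21, adjusted p = 0.00166, edgeR), and the fall was called in 14 of 14 alternatives. Flox/flox C was the highest control library for Bcl11b, as it was for Eomes. Within a library, Eomes had 19.3, 28.9 and 21.0 times the level of Bcl11b per kilobase of exon in -/- A to C, and 2.06, 2.99 and 3.37 times in flox/flox A to C. This ratio does not depend on the scaling of the libraries, but it restates the rise of Eomes and the fall of Bcl11b and is no separate support. Markers of GABAergic neurons and the ventral telencephalon, where Bcl11b is also expressed, rose in 5 of the 8 tested of 10 listed and fell in 0. They summed to 14.3 to 44.5 CPM in the libraries labelled -/- and to 4.98 to 7.41 CPM in flox/flox libraries, and Nkx2-1, a defining ventral marker, had 0 reads in the libraries labelled -/- and a mean of 0.0398 CPM in flox/flox libraries. The part of these cells in the fall of Bcl11b was not tested.

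Tle4 (ENSMUSG00000024642, chromosome 19) encodes a Groucho-family corepressor of layer VI neurons, with wide expression in progenitors. It measured 111, 112 and 105 CPM in -/- A to C and 106, 119 and 106 CPM in flox/flox A to C. The groups overlapped, and the log2 difference was -0.01 ± 0.07 (SE, adjusted p = 0.897, edgeR). Its 95% confidence interval, 0.892-fold to 1.10-fold, was the narrowest of the 4 members that did not pass. The sign of this difference changed with 4 of 14 alternatives, and all 14 values lay between -0.0401 and 0.0437.

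Foxp2 (ENSMUSG00000029563, chromosome 6) encodes a forkhead factor of layer VI neurons and of many neurons outside the cortex. It measured 10.7, 10.3 and 13.3 CPM in -/- A to C and 10.8, 7.18 and 9.32 CPM in flox/flox A to C. The ranges overlapped, as -/- A and -/- B lay below flox/flox A. The log2 difference of 0.33 ± 0.17 (SE) did not pass (adjusted p = 0.184, edgeR), with a 95% confidence interval of 0.948-fold to 1.66-fold. It did not pass in any of the 14 alternatives.

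Ldb2 (ENSMUSG00000039706, chromosome 5) encodes a LIM domain-binding cofactor that marks layer V neurons. It had 16, 6 and 11 reads in -/- A to C and 10, 8 and 20 reads in flox/flox A to C. At this depth the log2 difference of -0.56 ± 0.49 (SE, adjusted p = 0.423, edgeR) had a 95% confidence interval of 0.306-fold to 1.51-fold. Changes within these bounds therefore remain possible. Without flox/flox C, the highest library, the difference was 0.0026.

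Cux1 (ENSMUSG00000029705, chromosome 5, 136248135 to 136567490, minus strand) and Cux2 (ENSMUSG00000042589, chromosome 5, 121856366 to 122050102, minus strand) encode homeodomain factors of upper-layer neurons, and Cux2 is also made in progenitors of the upper layers. Cux1 measured 173, 164 and 171 CPM in -/- A to C, against 151, 138 and 144 CPM in flox/flox A to C. The groups did not overlap, and the rise was small, 0.24 ± 0.06 (log2, SE, adjusted p = 0.0151, edgeR). It was called in 13 of 14 alternatives and lost without flox/flox B (0.20, adjusted p = 0.0721, edgeR). Reads of the CASP transcript, a Golgi protein made from the same gene, are counted with Cux1 in a table of genes. Cux1 overlaps Gm16599 over 1.97% of its exonic bases.

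Cux2 measured 25.6, 29.4 and 34.8 CPM in -/- A to C, against 42.8, 34.8 and 43.3 CPM in flox/flox A to C. The groups met, since -/- C and flox/flox B were both at 34.8 CPM. The fall of 0.43 (log2 fold change -0.43 ± 0.13, SE, adjusted p = 0.0388, edgeR) was called in 10 of 14 alternatives. It was lost without flox/flox A (-0.39, adjusted p = 0.105), flox/flox C (-0.37, adjusted p = 0.0976), -/- A (-0.33, adjusted p = 0.101) or -/- B (-0.41, adjusted p = 0.118). With the column letter as a block, the log2 fold change was -0.44 ± 0.10 (SE, adjusted p = 0.0151, edgeR). Per kilobase of exon, Cux1 was 3.42, 2.81 and 2.48 times as high as Cux2 in -/- A to C, and 1.77, 1.99 and 1.68 times in flox/flox A to C. This ratio was higher in every library labelled -/- than in any flox/flox library, and it is made from the same values as the 2 calls.

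Rorb (ENSMUSG00000036192, chromosome 19, 18930605 to 19111196, minus strand) encodes an orphan nuclear receptor that marks layer IV neurons and is also made in the retina and thalamus. It measured 7.12, 7.43 and 11.2 CPM in -/- A to C, against 2.94, 3.27 and 4.42 CPM in flox/flox A to C. The groups did not overlap, and within each group library C was the highest. The log2 fold change was 1.28 ± 0.23 (SE, 95% confidence interval 0.73 to 1.82, adjusted p = 0.00534, edgeR), and the rise was called in 14 of 14 alternatives. Markers of the diencephalon, where the thalamus forms, rose in 5 of 6 and fell in 0. They summed to 177 to 276 CPM in the libraries labelled -/- and to 54.2 to 96.4 CPM in flox/flox libraries, with library C highest in each group as well. Their part in the rise of Rorb was not tested.

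Mef2c (ENSMUSG00000005583, chromosome 13) encodes a MADS-box factor of maturing neurons that also acts in muscle, endothelium, neural crest and microglia. It measured 2.82, 2.95 and 3.31 CPM in -/- A to C and 1.93, 2.09 and 3.78 CPM in flox/flox A to C. The highest library was flox/flox C, above all those labelled -/-. The log2 difference of 0.22 ± 0.26 (SE) did not pass (adjusted p = 0.552, edgeR), with a 95% confidence interval of 0.761-fold to 1.79-fold. Without flox/flox C it was 0.60 and passed (adjusted p = 0.0416, edgeR), the only alternative of 14 that did. Endothelial and blood markers summed to 15.1 to 25.4 CPM in the libraries labelled -/- and to 60.3 to 96.6 CPM in flox/flox libraries, where Kdr, a VEGF receptor, made up most of the difference at 4.08 ± 1.87 CPM, against 53.4 ± 25.1 CPM (SD, n = 3 each). Of the 6 tested of 8 listed, 1 (Tal1) rose and 1 (Kdr) fell, and Pecam1, a defining endothelial marker, had means of 1.46 and 1.56 CPM in these groups. Muscle markers summed to 1.97 to 3.09 CPM in the libraries labelled -/- and to 5.42 to 7.29 CPM in flox/flox libraries, with Myod1 and Myog under 0.1 CPM on average in both groups. Of the 7 listed, 2 were tested, and 1 (Actc1) fell. Neural crest markers summed to 70.4 to 124 CPM in the libraries labelled -/- and to 62.7 to 83.5 CPM in flox/flox libraries, and of 6 tested 2 rose (Tfap2a and Tfap2b) and 3 fell (Snai2, Twist1 and Ets1). The 4 microglial markers summed to 13.1 to 15.9 CPM and 17.8 to 22.6 CPM in these groups, nearly all of it from Csf1r, the only one tested, which fell. The part of any of these cells in the level of Mef2c was not tested.

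**Figure D1:**
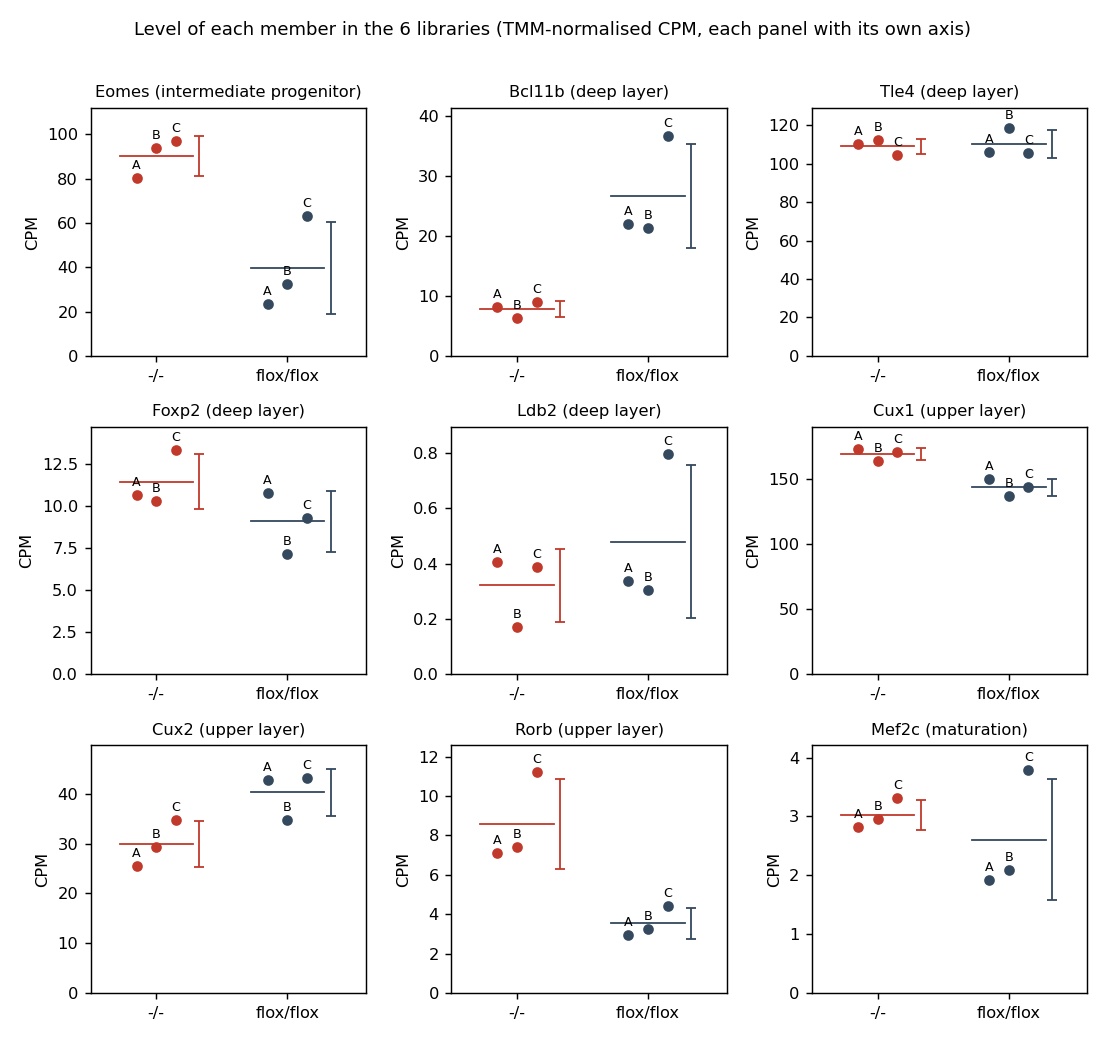
TMM-normalised CPM of the 9 members in each library, on axes that start at 0. Points are libraries A, B and C, horizontal lines are group means and bars are the SD (n = 3). Eomes and Rorb are higher and Bcl11b is lower in every library labelled -/- than in any flox/flox library, and flox/flox C stands above the other control libraries for Eomes, Bcl11b, Ldb2 and Mef2c.

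**Figure D2:**
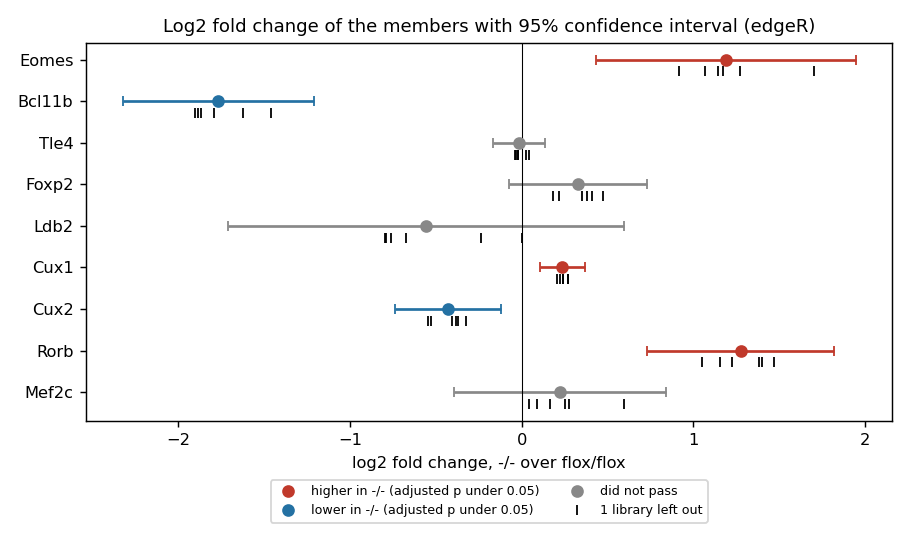
Log2 fold change of each member, libraries labelled -/- over flox/flox libraries, with the 95% confidence interval from edgeR, and in black the values with 1 library left out. Bcl11b lies farthest below 0 at -1.77 and Rorb farthest above at 1.28, while the interval of Ldb2 is the widest and that of Cux1 the narrowest.

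Set per kilobase of exon so that genes can be compared, the order of levels differed between the groups in the places of Eomes and Tle4 and of Rorb and Foxp2. In the libraries labelled -/-, Eomes led with 21.8 ± 2.18 CPM per kilobase (SD, n = 3), followed by Tle4 with 19.1 ± 0.707, and these neighbours overlapped. Cux1 (8.48), Cux2 (2.97), Bcl11b (0.966), Rorb (0.776), Foxp2 (0.701), Mef2c (0.193) and Ldb2 (0.0963) followed, with overlap between Bcl11b and Rorb and between Rorb and Foxp2. In flox/flox libraries Tle4 led with 19.3 ± 1.28 CPM per kilobase, clear of Eomes with 9.55 ± 5.04, which overlapped Cux1 at 7.20. Cux2 (4.00) and Bcl11b (3.29) overlapped, as did Mef2c (0.165) and Ldb2 (0.144), with Foxp2 (0.557) and Rorb (0.320) between these pairs. Exon lengths are of all annotated transcripts together, 3336 to 20024 bases, so genes with long alternative exons read low on this scale.

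Library C was the highest flox/flox library for 6 of 9 members (Eomes, Bcl11b, Ldb2, Cux2, Rorb and Mef2c) and the highest of those labelled -/- for 6 of 9 (Eomes, Bcl11b, Foxp2, Cux2, Rorb and Mef2c). Neuronal markers (Tubb3, Map2, Dcx, Stmn2, Rbfox3, Snap25 and Syt1) summed to 2232, 2469 and 3741 CPM in -/- A to C and to 1043, 1346 and 1869 CPM in flox/flox A to C, so library C was the highest in each group there too. Of these 7 markers 6 rose and 0 fell. Neural progenitor markers moved in both directions (3 rose and 4 fell of 8) and summed to 2854 to 3198 CPM in the libraries labelled -/- and 3196 to 3722 CPM in flox/flox libraries. Bcl11b and Cux2 were lower in the libraries labelled -/-, where neuronal markers were higher. Within each group, both were highest in library C, as neuronal markers were. The part of neuronal RNA in the members' changes was not tested.

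**Figure D3:**
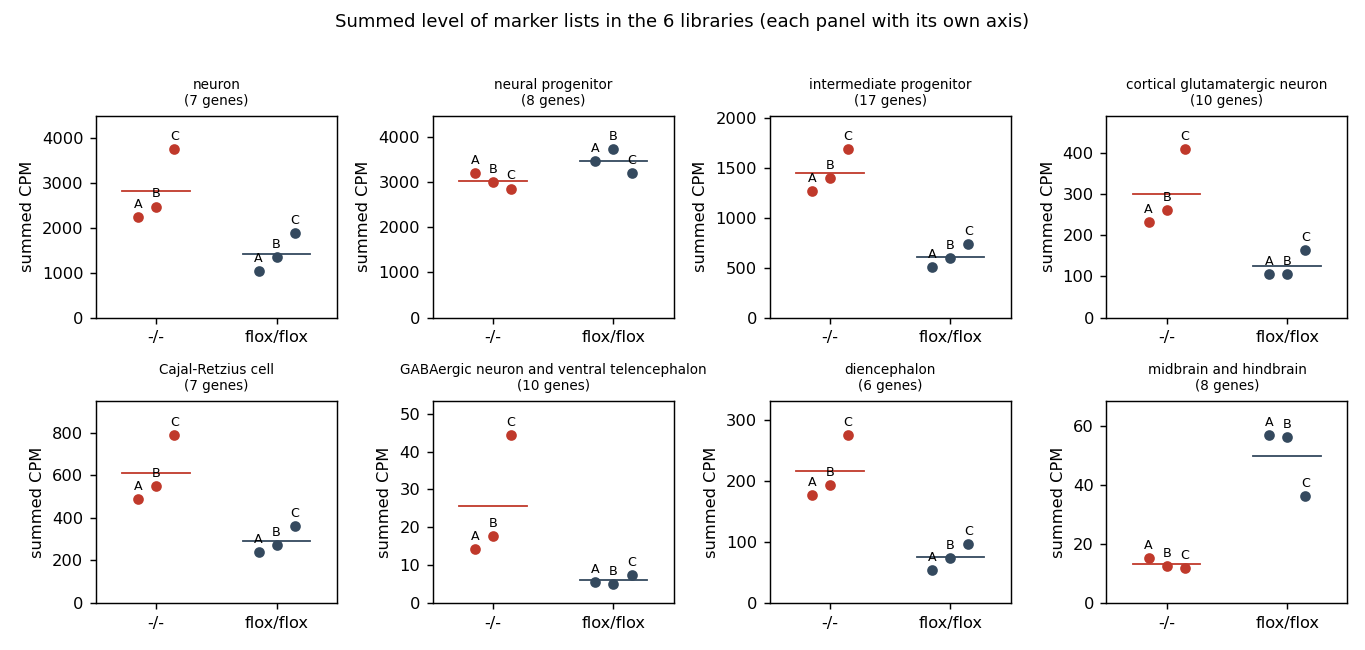
Summed TMM-normalised CPM of 8 marker lists in each library (points A, B and C, lines for group means), with an axis from 0 in each panel. Neuron, intermediate progenitor, Cajal-Retzius and diencephalon sums are higher in every library labelled -/-, midbrain and hindbrain sums are lower, and library C is the highest of its group for neuronal sums. The Cajal-Retzius sum joins 5 genes that rose with Reln and Trp73, which fell.

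Of 17 other genes of intermediate progenitors listed and tested, 17 rose, as Eomes did, and 0 fell. Their median log2 fold change was 1.25, and 17.9% of all genes tested rose. The list was chosen with earlier results of these data known, so its count is no independent support. The number that rose was 14 without flox/flox A and 15 without flox/flox B, and 0 fell in any alternative. Btg2, an antiproliferative gene of neurogenic divisions, rose 2.28-fold, and the proneural factor genes Neurog1 and Neurod4 rose 3.21-fold and 5.85-fold. Btg2 measured 236, 250 and 247 CPM in -/- A to C, against 105, 107 and 109 CPM in flox/flox A to C. Its fold equalled that of Eomes with a much smaller spread between libraries. The smallest rise was in Dll1, a Notch ligand (0.50 ± 0.15, log2, SE, adjusted p = 0.0383, edgeR), named because it sets the lower end. Many of the 17 are also expressed in neurogenic cells outside the cortex, and 2 (Sstr2 and Mfap4) lie on chromosome 11. No member lies there. Of the 7 neuronal markers 6 rose as well, and the part of neuronal RNA in the rises of the 17 was not tested.

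The other deep-layer and subplate genes moved in both directions. Of 18 listed, 16 were tested, 4 rose and 7 fell, and the median log2 fold change was -0.43. Lmo3, a LIM-only gene, rose to 45.7 ± 10.9 CPM in the libraries labelled -/-, against 10.1 ± 4.56 CPM in flox/flox libraries. Tbr1, the T-box factor of layer VI and of Cajal-Retzius cells that follows Eomes in the glutamatergic lineage, reached 89.2, 103 and 147 CPM in -/- A to C, against 19.0, 20.9 and 57.6 CPM in flox/flox A to C. As for Eomes, flox/flox C was far above the other control libraries. Etv1, an ETS factor of layer V, rose 1.43-fold. Among the falls, Nfib, a nuclear factor I gene of progenitors and deep layers, went down to 9.68 ± 1.68 CPM in the libraries labelled -/-, against 35.3 ± 6.09 CPM in flox/flox libraries, and Bcl6, a transcriptional repressor, was 2.25-fold lower. Fezf2, the zinc finger factor that specifies layer V neurons and acts upstream of Bcl11b in the cortex, measured 24.8, 22.0 and 19.6 CPM in -/- A to C, against 43.6, 50.4 and 59.4 CPM in flox/flox A to C, a 2.30-fold fall beside the 3.40-fold fall of Bcl11b. The part of Fezf2 in the fall of Bcl11b was not tested. Without flox/flox B the deep-layer and subplate list had 1 rise, and 7 falls as before.

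Of 15 upper-layer genes listed, 13 were tested, 5 rose and 1 fell, with a median of -0.05. Pou3f2, a POU factor of upper layers and of the hypothalamus, rose to 173 ± 28.4 CPM in the libraries labelled -/-, against 35.0 ± 13.5 CPM in flox/flox libraries, while its paralog Pou3f3 (named for the comparison after its values were seen) was at 144 ± 16.5 and 154 ± 33.7 CPM in these groups (SD, n = 3 each) and did not pass. The guidance receptor gene Epha3 rose 3.76-fold, and Plxnd1, a plexin, was the fall (1.58-fold). With upper-quartile scaling, DESeq2, limma-voom or the column letter as a block, 2 upper-layer genes fell.

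Genes of mature cortical glutamatergic neurons rose in 5 of 9 tested (10 listed) and fell in 0, with a median of 0.86. The glutamate receptor genes Gria2 and Grin2b rose 3.46-fold and 2.62-fold. Neurod6, a bHLH factor of cortical projection neurons, had too few reads to be tested, with means of 0.0648 CPM in the libraries labelled -/- and 0.106 CPM in flox/flox libraries. Neurod2, its relative, was at 0.757 and 0.619 CPM in these groups and did not pass. Slc17a7, the vesicular glutamate transporter of cortical neurons, had means of 4.70 and 3.14 CPM and did not pass (adjusted p = 0.0558, edgeR). These 3 were chosen after their values were seen, as markers that separate cortical neurons from other glutamatergic neurons. Markers of the midbrain and hindbrain, where several of the members are also made, fell in 6 of 7 tested (8 listed) and rose in 0, with sums of 11.8 to 15.1 CPM in the libraries labelled -/- and 36.3 to 57.0 CPM in flox/flox libraries.

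**Figure D4:**
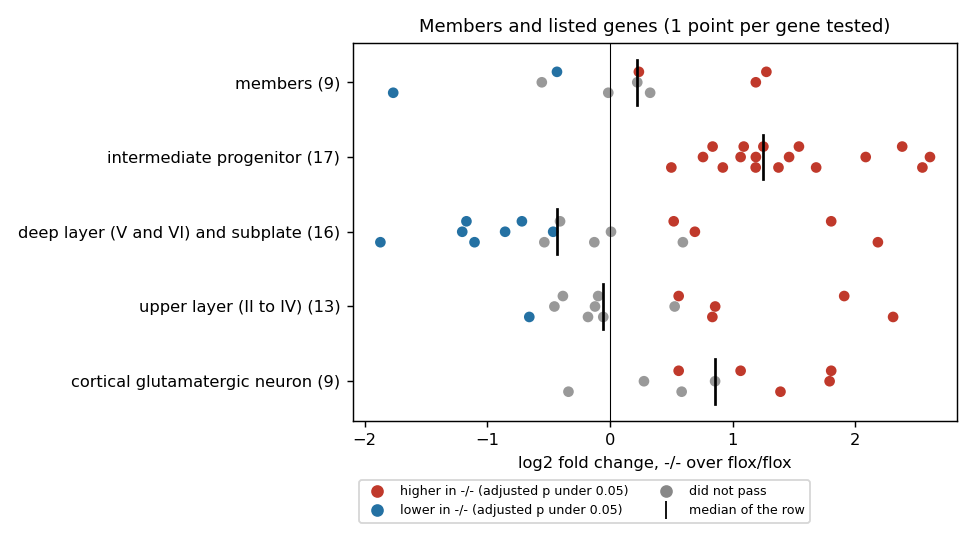
Log2 fold change of the 9 members and of the genes tested in 4 lists, libraries labelled -/- over flox/flox libraries, 1 point per gene, with the median of each row as a black line. All 17 intermediate progenitor genes lie to the right of 0, while deep-layer genes lie on both sides with a median of -0.43.

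The genes whose pattern over the 6 libraries was most like a member's were found by the root mean square difference of log2 levels, each gene centred on its own mean, among 11396 protein-coding genes with a mean of at least 5 CPM. For Eomes these were Ank1 (0.12), Pgbd5 (0.15) and Rgmb (0.16), and 12 genes lay within 0.2. For Bcl11b they were Dgkb (0.20), Bmp2 (0.25) and Slc6a15 (0.28), and 1 gene lay within 0.2. Rorb was most like St8sia1 (0.04), Syp (0.04) and Samd14 (0.05), among 254 genes within 0.2. Cux2 was most like Ppp1r13b (0.05), Bmf (0.07) and Lmo2 (0.07), Cux1 like Scamp2, Paip2b and Gas2l3 (0.02 each), and Tle4 like E130218I03Rik, Plekha5 and Hmgxb3 (0.02 each), among 838, 6067 and 6713 genes within 0.2. Foxp2 was most like Pdzrn3 (0.07), Mfsd9 (0.08) and Hivep2 (0.08), Mef2c like Fbxo32 (0.08), Peg10 (0.10) and Hagh (0.11), and Ldb2 like Hilpda (0.13), Sdk2 (0.14) and Srxn1 (0.14). At 0.170 to 0.797 CPM, Ldb2 is near the 0.5 CPM added before the log, which shrinks its differences, so its likeness is poorly set. Tle4 and Cux1, with small differences between libraries, had the most genes within 0.2, and Bcl11b the fewest.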

How the data were processed

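RNA libraries were made with a stranded mRNA kit on day 8, per the labels' protocols. The authors deposited raw read counts per Ensembl gene for 6 libraries in 1 table. BWA 0.5.9, featureCounts 1.4.6 and mm10 (GRCm38) are named in the submitters' processing notes. Duplicates were marked, per the name of the deposited count table, and it is not given in the sources used here whether they were counted, nor are the annotation, strand setting and treatment of multiply mapping reads. Columns carry letters and labels carry numbers, so columns were assigned to groups only, and 0 columns were left out. Same-letter libraries deviated together from their group means (r = 0.37, 0.14 and 0.34 over 17814 genes, other pairs -0.40 to 0.06). The letter was therefore used as a block in an alternative. Values for members are from the fit without it unless the block is named.

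Symbols, positions and exon lengths came from GENCODE M21 (GRCm38), which matched 48144 of 48526 identifiers, and promoter windows from RefSeq (GRCm38.p6). Genes were filtered with filterByExpr (minimum count 10, minimum total 15), scaled by TMM and tested in R 4.3.3 with edgeR 4.0.16 (glmQLFit, glmQLFTest, group alone), Benjamini-Hochberg over 20549 genes. The SE is the log2 fold change divided by the square root of F. The fit was tested on simulated counts drawn independently for each library, which does not cover the shared deviations of same-letter libraries or a difference between lines. Libraries of a group differed beyond sampling noise (chi-square per gene 5.47 to 29.8). Likeness used log2(CPM + 0.5). Alternatives were DESeq2-style (RLE) and upper-quartile scaling, TMM without chromosome 11, no filter, 1 CPM in 3 libraries, each library left out, the column letter as a block, DESeq2 1.42.0, limma-voom (limma 3.58.1) and a threshold of 0.01. Members and lists were chosen with earlier results of these data known. Named are the members, from each list up to 3 genes a direction by adjusted p, marker genes beside a member and the 3 most alike genes, and others are said to be added. Some genes are not reported here.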

Additional observations from a re-analysis of the deposited data

How the results depend on the processing

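Bcl11b and Rorb kept their direction and their call in all 14 alternatives (log2 fold change -1.90 to -1.46 and 1.05 to 1.47). Eomes, Cux1 and Cux2 kept their direction in 14 of 14 and their call in 11, 13 and 10, and each lost call came from leaving out a library. The log2 difference of Tle4 changed sign with TMM factors without chromosome 11 (0.0116), with no filter (0.0062), without flox/flox B (0.0437) and without -/- C (0.0261), leave-one-out values running from -0.0401 to 0.0437. That of Ldb2 ran from -0.79 to 0.0026 with a library left out, and it was not tested under the filter of 1 CPM, which removes it. With a library left out, 1 to 4 members rose and 1 to 2 fell, against 3 and 2. The lowest number of rises, 1, was without flox/flox B. Over all genes 2315 to 3510 rose and 2342 to 3336 fell in these fits, against 3679 and 3571. In the same fits, 14 to 17 intermediate progenitor, 1 to 4 deep-layer and 3 to 6 glutamatergic genes rose, and 1 to 2 upper-layer genes fell. Outside these fits, 5 deep-layer genes rose with the block, and 7 glutamatergic genes rose with no filter and with DESeq2. At a threshold of 0.01, 1 member rose and 1 fell, 1992 genes rose and 1895 fell over all, and 14 intermediate progenitor genes, 1 deep-layer gene and 3 glutamatergic genes rose. Upper-quartile scaling, DESeq2, limma-voom and the block each gave 2 upper-layer falls. With the column letter as a replicate block, 3 members rose and 2 fell, the same calls as without it. In that fit the adjusted p was 0.00274 for Eomes, 0.000103 for Bcl11b, 0.00671 for Cux1, 0.0151 for Cux2 and 0.000279 for Rorb (edgeR). No scaling moved the median log2 fold change of all genes by over 0.1. Depth limits Ldb2, with at most 20 reads in a library, and counts measure libraries of 1 line per genotype.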
